A study of Mus musculus with 7 samples.

Results

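Expression of 10 genes linked to muscle atrophy and to glucocorticoid hormones was followed across 7 RNA-sequencing libraries of mouse hindlimb tendon. The genes were Fbxo32, Trim63, Pdk4, Foxo1, Foxo3, Fkbp5, Tsc22d3, Ddit4, Mt1 and Mt2. They were chosen by symbol from the 44818 features to which transcript counts were summed, and all 10 passed the filter on low counts. All mice were of C57BL/6 background. The study asked how signalling by the kinase TAK1 bears on misplaced tissue, heterotopic bone, that forms after injury. Mice behind 2 of the groups were given a partial-thickness burn of 30% of their skin, made on the back in 18 s with metal at 60 °C. Their left Achilles tendon was transected in the same operation, and buprenorphine was given against pain. The tenotomy group (n = 2) was tissue of the cut site 3 weeks later. Contralateral libraries (n = 3) were from the uncut tendon from the right leg of mice so treated, also after 3 weeks. Libraries called uninjured here (n = 2) were hindlimb tendon of wild-type mice with neither burn nor tenotomy. No group had a burn without a tenotomy, so an effect of the burn on contralateral tendon and an effect of the cut in the other leg cannot be told apart. The labels give neither the age nor the sex of the mice. They also do not say whether libraries came from separate animals, so p-values measure the spread between these libraries.

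Muscle loses protein mainly through the ubiquitin-proteasome system and autophagy. Fbxo32 (atrogin-1) and Trim63 (MuRF-1) are the muscle-specific ubiquitin ligases that rise in most forms of atrophy, and the FOXO transcription factors Foxo1 and Foxo3, which insulin and IGF signalling keep out of the nucleus, are known to switch them on. Glucocorticoids, which rise in fasting, burns and other stress, bind a nuclear receptor that acts on DNA directly. Among its well-known targets are Fkbp5, a co-chaperone that lowers the receptor's affinity for hormone, Tsc22d3 (GILZ), an anti-inflammatory leucine zipper protein, and Ddit4 (REDD-1), an inhibitor of the growth kinase mTOR. Pdk4, a mitochondrial kinase that shuts off pyruvate dehydrogenase and so spares glucose, answers to fasting, FOXO factors and glucocorticoids. The metallothioneins Mt1 and Mt2 bind zinc and copper and are induced by metals, glucocorticoids and inflammation.

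Promoter sequences of 4 of the genes are shown because those genes moved most or because their promoters held the elements through which these hormones and metals are known to act. Windows of 300 bases (250 before to 50 after the start) were taken from RefSeq on GRCm38.p6 for 9 of the 10 genes, all but Fbxo32. They were searched on both strands for the glucocorticoid element, written here as GNACA, any 3 bases and TGTNC, which reads the same on both strands, the FOXO element GTAAACA, and the metal elements TGCACNC and TGCGCNC. Capitals mark the matches, positions are counted from 1 at the 5′ end of the window, and each sequence runs 5′ to 3′ on the gene's strand.
Trim63, chr4:134314870-134315169, plus strand: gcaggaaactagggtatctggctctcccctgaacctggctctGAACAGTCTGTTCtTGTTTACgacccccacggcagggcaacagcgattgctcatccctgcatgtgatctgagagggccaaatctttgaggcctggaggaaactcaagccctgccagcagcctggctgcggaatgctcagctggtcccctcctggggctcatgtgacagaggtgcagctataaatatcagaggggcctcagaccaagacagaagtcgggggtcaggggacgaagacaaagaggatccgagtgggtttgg
Mt1, chr8:94178839-94179138, plus strand: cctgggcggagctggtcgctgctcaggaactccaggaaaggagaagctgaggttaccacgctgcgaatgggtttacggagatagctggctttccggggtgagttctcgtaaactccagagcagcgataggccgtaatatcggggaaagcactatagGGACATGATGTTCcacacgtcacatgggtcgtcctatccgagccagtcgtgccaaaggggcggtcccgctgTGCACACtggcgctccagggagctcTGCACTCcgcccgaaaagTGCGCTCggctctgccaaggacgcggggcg
Mt2, chr8:94172368-94172667, plus strand: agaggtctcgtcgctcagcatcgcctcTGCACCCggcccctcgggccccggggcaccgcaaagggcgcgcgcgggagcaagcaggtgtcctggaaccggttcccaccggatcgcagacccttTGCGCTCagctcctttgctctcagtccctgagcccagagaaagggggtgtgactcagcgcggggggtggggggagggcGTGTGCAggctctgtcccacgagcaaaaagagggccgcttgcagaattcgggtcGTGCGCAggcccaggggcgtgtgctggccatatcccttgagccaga
Pdk4, chr6:5496229-5496528, minus strand: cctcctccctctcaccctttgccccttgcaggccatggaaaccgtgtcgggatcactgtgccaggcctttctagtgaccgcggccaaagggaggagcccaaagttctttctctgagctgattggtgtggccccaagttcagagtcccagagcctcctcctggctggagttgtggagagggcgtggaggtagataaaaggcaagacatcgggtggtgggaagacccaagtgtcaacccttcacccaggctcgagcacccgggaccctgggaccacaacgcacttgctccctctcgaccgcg
The Trim63 window held a glucocorticoid element at bases 43 to 55 and a FOXO element at bases 57 to 63, a single base apart. Mt1 held a glucocorticoid element at bases 157 to 169 and 3 metal elements, of which 2 lay past the start. Mt2 held 4 metal elements, of which 1 lay just past the start. No searched element was found in the Pdk4 window. Of all 32851 promoters of this length in the table, 0.475% held the glucocorticoid element, 3.65% the FOXO element, 12.6% TGCACNC and 15.4% TGCGCNC. Among the 9 genes, 2 held the glucocorticoid element, 1 the FOXO element, 2 TGCACNC and 4 TGCGCNC (Mt1, Mt2, Foxo3 and Ddit4). These counts are per gene over all its windows, whereas the percentages are per promoter. Tsc22d3 had several windows, none with a match. A match is a run of letters and not a shown binding site.

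Library totals ranged from 25927171 to 36725106 estimated counts. Between 76.4% and 81.4% of them fell on 5 features (Gm42418, Lars2, Mir6236, mt-Rnr2 and a transcript without a matched gene), which left 4934057 to 8375626 counts for all others. The 10 genes held between 81 counts (Mt2 in contralateral replicate 3) and 2028 counts (Pdk4 in contralateral replicate 2) per library. The uninjured libraries stood apart from each other. In log2 CPM of 16028 genes their Euclidean distance was 114.0. The library labelled uninjured replicate 1 was nearest the tenotomy libraries (59.6 and 61.1), and that labelled uninjured replicate 2 was nearest the contralateral ones (64.5 to 67.4). Markers of cartilage summed to 68.3 CPM in the former and 5.23 CPM in the latter, beside 221.1 and 226.3 CPM in tenotomy and 3.37 to 4.27 CPM in contralateral libraries, with Matn1 at 0 in uninjured and contralateral libraries. The label of uninjured replicate 1 may be wrong, which was not tested and which these data cannot settle. Every value against uninjured replicate 1 is one against the library so labelled. None of 8 tendon markers was at 0 in any group. However, 22 markers of skeletal myofibres summed to 12170 to 15140 CPM in contralateral libraries, 1259 and 1271 CPM in tenotomy libraries, 1573 CPM in uninjured replicate 1 and 10910 CPM in uninjured replicate 2. The tendon markers summed to 547.2 to 772.1 CPM in contralateral and 2473 to 3017 CPM in the other groups. Their mean log2 CPM, in which each marker counts alike, was 3.76 to 4.41 in contralateral libraries. It was 5.33 and 4.64 in uninjured replicates 1 and 2, and 5.53 and 5.59 in tenotomy libraries. CPM are counts scaled to library size, here with TMM factors (trimmed mean of M-values). In such bulk tissue, fewer muscle fibres and less RNA of a gene per fibre cannot be told apart.

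The first question was whether the genes differed between the intact tendon of injured mice and tendon of uninjured mice. Pdk4, Fbxo32, Trim63, Fkbp5 and Tsc22d3 were higher in all 3 contralateral libraries than in both uninjured libraries, and no gene of the 10 was lower in this sense. Of all genes tested, 18.9% showed such a separation upward. With edgeR's quasi-likelihood test on all 7 libraries, none of the 10 passed an adjusted p-value of 0.05, nor did any of 16028 genes (0.0% called), although 3084 had an unadjusted p-value under 0.05. DESeq2 on the same counts called 223 genes, of which 81 were higher in contralateral tendon (0.505% of those tested), and among these were Pdk4, Fbxo32, Trim63 and Fkbp5. On simulated counts of 15513 genes without any change in this comparison, DESeq2 still called 13 genes and edgeR 0. The simulation drew each gene on its own around a mean shared by these groups. It therefore lacked the distance between the uninjured libraries and cannot tell how either tool behaves on these data. Without the filter on low counts edgeR called Pdk4 and Fbxo32 higher (0.323% of 29100 genes were), and with the series of the title numbers as a covariate Pdk4, Fbxo32 and Trim63 (8.39% were). Because the uninjured libraries lay so far apart, each was also compared alone, by leaving the other out of the fit. A single library then stood for the uninjured group and was assumed to vary like the other groups. The values did not bear this out. The uninjured libraries lay 114.0 apart in log2 CPM, beside 54.5 between tenotomy and 56.7 to 65.2 between contralateral libraries. Median dispersion, edgeR's measure of spread, was 0.0087 with no uninjured library fitted and 0.0353 with only uninjured and contralateral libraries. Adjusted p-values and calls against either uninjured library alone leave out the spread between the uninjured libraries, so they are likely too favourable.

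**Figure D1:**
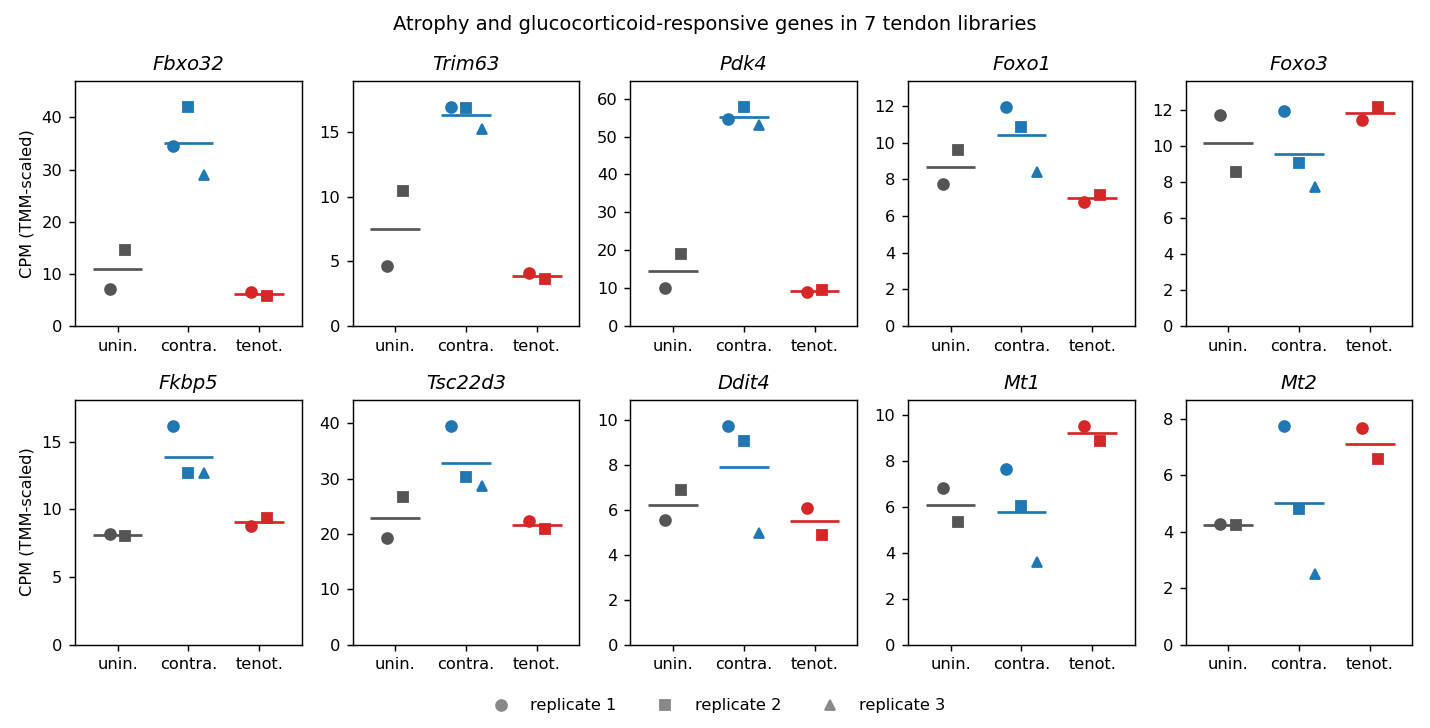
TMM-scaled CPM of the 10 genes (vertical axes, each starting at 0) in uninjured, contralateral and tenotomy libraries, with 1 point per library and a bar at the group mean. The contralateral points of Pdk4, Fbxo32, Trim63, Fkbp5 and Tsc22d3 lie above all uninjured points, and the tenotomy points of Mt1 lie above all contralateral points.

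Pdk4 (ENSMUSG00000019577.6, chr6:5483351-5496309, minus strand, GRCm38) showed the largest difference. It was at 54.5, 57.7 and 53.0 CPM in the contralateral libraries against 10.1 CPM in uninjured replicate 1 and 19.0 CPM in uninjured replicate 2. The contralateral values varied by no more than 1.09-fold among themselves, and the lowest of them was well above both uninjured values. The contralateral mean, 55.1 CPM ± 2.42 (SD, n = 3), was 5.45-fold and 2.91-fold above the respective uninjured libraries. Against uninjured replicate 1 alone the log2 fold change was 2.45 (SE 0.14, edgeR adjusted p = 3.38e-07), and against replicate 2 alone it was 1.54 (SE 0.13, edgeR adjusted p = 0.000585). With both libraries as the uninjured group it was 1.92 (SE 0.28, edgeR adjusted p = 0.15).

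Among the ubiquitin ligases, Fbxo32 (ENSMUSG00000022358.7, chr15:58175879-58214932, minus strand) was at 34.4, 41.9 and 28.9 CPM in contralateral libraries, 7.15 CPM in uninjured replicate 1 and 14.6 CPM in replicate 2. All contralateral values lay above the uninjured ones. The log2 fold change was 2.30 against replicate 1 (SE 0.22, edgeR adjusted p = 9.25e-06) and 1.26 against replicate 2 (SE 0.20, edgeR adjusted p = 0.0168). Trim63 (ENSMUSG00000028834.13, chr4:134315120-134329629, plus strand), the ligase of thick-filament proteins, was at 16.9, 16.9 and 15.2 CPM against 4.67 and 10.4 CPM, again without overlap. Its difference passed the threshold against replicate 1 (log2 fold change 1.81, SE 0.15, edgeR adjusted p = 4.22e-06) and missed it against replicate 2 (0.65, SE 0.13, edgeR adjusted p = 0.0611).

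The classical glucocorticoid targets followed. Fkbp5 (ENSMUSG00000024222.17, chr17:28399094-28517527, minus strand) was at 16.2, 12.7 and 12.7 CPM in contralateral tendon and at 8.19 and 8.02 CPM in the uninjured libraries. Its level was nearly the same in both uninjured libraries, a 1.02-fold range where Pdk4 had 1.88-fold and Trim63 2.23-fold. The contralateral mean was 1.69-fold and 1.73-fold above them. The log2 fold changes were accordingly alike, 0.75 against replicate 1 (SE 0.17, edgeR adjusted p = 0.00459) and 0.78 against replicate 2 (SE 0.17, edgeR adjusted p = 0.0709). Tsc22d3 (ENSMUSG00000031431.13, chrX:140539528-140600659, minus strand) was at 39.6, 30.3 and 28.8 CPM against 19.3 and 26.7 CPM. Its lowest contralateral value was close to the higher uninjured one, and it passed against replicate 1 (log2 fold change 0.77, SE 0.18, edgeR adjusted p = 0.00584) but not against replicate 2 (0.30, SE 0.17, edgeR adjusted p = 0.573). Ddit4 (ENSMUSG00000020108.4, chr10:59949669-59951834, minus strand) was at 9.74, 9.08 and 4.95 CPM against 5.53 and 6.88 CPM, so the groups overlapped.

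Neither FOXO factor nor metallothionein passed against either uninjured library, with log2 fold changes from -0.30 to 0.42. Foxo1 (ENSMUSG00000044167.6, chr3:52268336-52353221, plus strand) was at 8.41 to 11.9 CPM in contralateral libraries and at 7.76 and 9.57 CPM in uninjured ones. Foxo3 (ENSMUSG00000048756.11, chr10:42181841-42276755, minus strand) was at 7.70 to 11.9 CPM against 11.7 and 8.57 CPM. The metallothionein genes lie next to each other on chromosome 8. Mt1 (ENSMUSG00000031765.8, chr8:94179082-94180327, plus strand) was at 7.65, 6.03 and 3.62 CPM and Mt2 (ENSMUSG00000031762.7, chr8:94172664-94173568, plus strand) at 7.76, 4.81 and 2.50 CPM in contralateral replicates 1, 2 and 3. This was the widest spread of the 10 genes within the group, 3.10-fold for Mt2 and 2.11-fold for Mt1, and Ddit4 followed with 1.97-fold. Uninjured libraries had 6.83 and 5.37 CPM of Mt1 and 4.28 and 4.23 CPM of Mt2, inside the contralateral range.

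In all, 2 of the 10 genes were called higher against uninjured replicate 2, where 0.306% of 17018 genes were. Against uninjured replicate 1 the count was 5 of 10, where 16.9% of 16877 genes were called higher. Their median log2 fold change was 0.26 and 0.63, respectively, beside medians of 0.02 and -0.004 over all genes tested. Over 90 related genes of the same pathways that could be tested, the median log2 fold change was 0.58 against uninjured replicate 1. Against uninjured replicate 2 it was 0.18. Among these genes Cdkn1c, a cell-cycle inhibitor induced by glucocorticoids, was lower, with a log2 fold change of -1.57 against replicate 2 (SE 0.20). Cdkn1c was at 1.95, 1.65 and 1.36 CPM in contralateral libraries against 4.13 and 4.89 CPM in uninjured libraries.

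**Figure D2:**
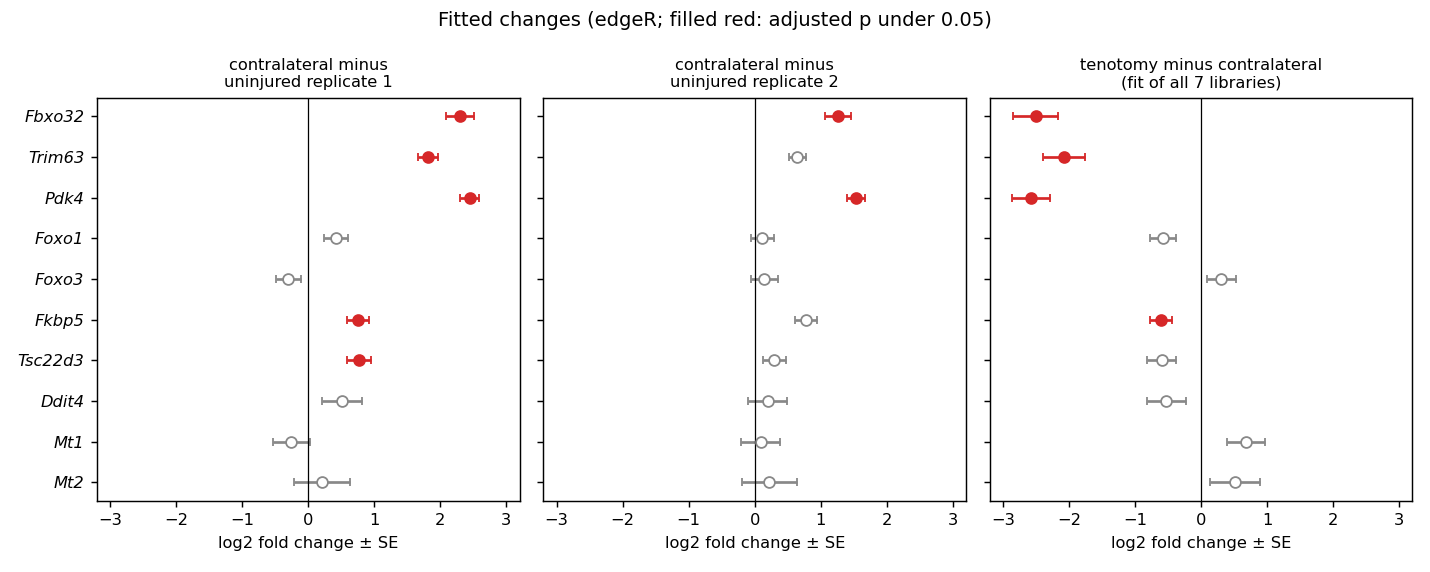
Log2 fold changes (horizontal axes, with 1 SE) of the 10 genes in 3 comparisons: contralateral libraries minus uninjured replicate 1 alone, minus uninjured replicate 2 alone, and tenotomy minus contralateral in the fit of all libraries. Filled red points passed an edgeR adjusted p-value of 0.05. Pdk4 and Fbxo32 are filled in all 3 panels.

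Muscle markers moved with these values. The mean log2 CPM of the 22 myofibre markers was higher in contralateral tendon by 3.16 than in uninjured replicate 1 and by 0.39 than in uninjured replicate 2. Against replicate 1 all 22 markers were called higher. Against replicate 2, 7 of 22 were, namely Myh7, Myl2, Tnnt1, Tnnc1, Mb, Mybpc1 and Myh2, genes of slow or oxidative fibres, with log2 fold changes from 0.73 to 1.26 (myosin genes share sequence, so counts of Myh7 and Myh2 are uncertain). In a grouping made after these values were seen, the mean of 4 slow-fibre markers was 1.05 higher on the log2 scale in contralateral libraries than in uninjured replicate 2, and the mean of 9 fast-fibre markers differed by -0.03. Beside these stand the log2 fold changes of Pdk4 (1.54) and Fbxo32 (1.26). Other cell types moved against uninjured replicate 1. The median log2 fold change was 1.58 for 7 adipocyte markers and -1.93 for 9 markers of macrophages and other leukocytes. Against uninjured replicate 2 these medians were -0.04 and -0.20.

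Levels were therefore also set relative to the markers of each library, as a description without a test. Relative to all 22 markers, Pdk4 was 1.14 higher on the log2 scale in contralateral tendon than in uninjured replicate 2 (SD of the contralateral values 0.18), Fbxo32 0.85 higher (SD 0.37), Fkbp5 0.38 (SD 0.34) and Trim63 0.25 (SD 0.23). Relative to the 4 slow-fibre markers, the difference was 0.49 for Pdk4 (SD 0.13), 0.19 for Fbxo32 (SD 0.08), -0.40 for Trim63 (SD 0.15) and -0.28 for Fkbp5 (SD 0.31). That set was chosen after its markers were seen to be higher in contralateral libraries than in uninjured replicate 2, by 1.05 on average. Subtracting it lowers every gene, so it cannot sort Pdk4 and Fbxo32 from Trim63 and Fkbp5. Relative to the fast-fibre markers, the difference was 1.56 for Pdk4 (SD 0.35) and 1.27 for Fbxo32 (SD 0.54). For Trim63 it was 0.67 (SD 0.39) and for Fkbp5 0.80 (SD 0.45). By all 22 markers and by the fast-fibre set, Pdk4, Fbxo32, Trim63 and Fkbp5 thus lay above uninjured replicate 2. Relative to all 22 markers the remaining genes lay below it: Tsc22d3 (-0.10), Ddit4 (-0.25), Foxo1 (-0.29), Foxo3 (-0.26), Mt1 (-0.35) and Mt2 (-0.29). Relative to the fast-fibre set they lay above it, by 0.06 (Mt1) to 0.31 (Tsc22d3). Each of these differences was smaller than the SD of the contralateral values. Against uninjured replicate 1, which held far less muscle RNA, the direction for Pdk4, Fbxo32, Trim63 and Fkbp5 was the opposite. Relative to all 22 markers, the differences were then -0.72 for Pdk4, -0.89 for Fbxo32, -1.37 for Trim63 and -2.42 for Fkbp5. How much of each gene's change belongs to the content of muscle or of slow fibres was not tested.

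**Figure D3:**
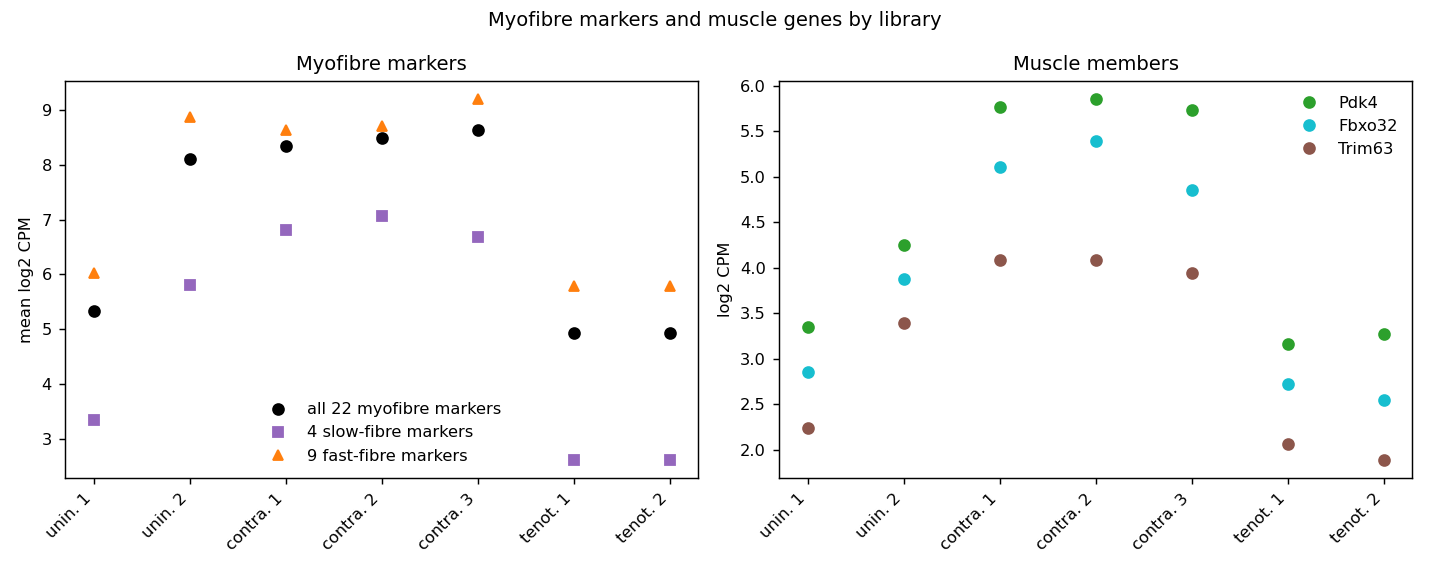
Mean log2 CPM of 22 myofibre markers and of their slow-fibre and fast-fibre members (left), and log2 CPM of Pdk4, Fbxo32 and Trim63 (right), with 1 point per library along the horizontal axis. Uninjured replicate 2 is level with the contralateral libraries in fast-fibre markers, below them by 1.05 on average in slow-fibre markers, and below them in the 3 genes.

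The next question was how the cut site differed from the contralateral tendon of mice with the same injuries. Pdk4, Fbxo32, Trim63 and Fkbp5 fell at the tenotomy site when all libraries were fitted with edgeR, and none of the 10 rose. The share called was 4 of 10 lower, where 15.4% of 16028 genes were called lower and 13.6% higher. Their median log2 fold change was -0.59, beside a median of -0.001 over all genes tested. Over all genes 2178 were called higher and 2465 lower, and with upper quartile scaling 2633 and 2163. In 6 of the 10 genes both tenotomy libraries lay below all contralateral libraries, as did 31.8% of all genes tested. Mt1 alone lay above them, as did 31.9% of all genes.

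Pdk4 was at 8.89 and 9.57 CPM at the tenotomy site, far below the 53.0 to 57.7 CPM of contralateral tendon, and fell (log2 fold change -2.58, SE 0.29, edgeR adjusted p = 0.0167). Fbxo32 was at 6.55 and 5.80 CPM and fell (log2 fold change -2.50, SE 0.34, edgeR adjusted p = 0.0167). Trim63 was at 4.11 and 3.63 CPM and fell (log2 fold change -2.08, SE 0.32, edgeR adjusted p = 0.0167). These falls of the muscle genes were smaller than that of the myofibre markers, whose mean log2 CPM changed by -3.55 and of which 22 of 22 were called lower. Relative to those markers, Trim63, Fbxo32 and Pdk4 were higher at the tenotomy site than in contralateral tendon by 1.49, 1.07 and 0.98 on the log2 scale. So were the remaining genes of the 10, by 2.96 (Fkbp5) to 4.29 (Mt1). Any gene that fell by less than the markers is higher on this scale. For Trim63, Fbxo32 and Pdk4, the values were 1.00, 0.58 and 0.49 relative to the fast-fibre markers alone. Relative to the slow-fibre markers alone, they were 2.18, 1.76 and 1.67. Adipocyte markers also moved, from 4.30 to 4.59 mean log2 CPM in contralateral to 3.10 and 3.13 in tenotomy libraries, and those of macrophages and other leukocytes from 0.78 to 1.23 up to 2.93 and 2.98. Fibroblast markers were called higher in 5 of 5, with a mean log2 CPM of 3.535 to 3.57 in contralateral and 5.47 and 5.53 in tenotomy libraries. Cartilage markers were called higher in 4 of 5 tested, with a mean log2 CPM of -0.615 to -0.42 and of 3.45 and 3.73. Their part in the results was not tested.

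The glucocorticoid targets lay lower by a smaller amount. Fkbp5 was at 8.78 and 9.37 CPM and fell (log2 fold change -0.61, SE 0.17, edgeR adjusted p = 0.0312), to near the level of both uninjured libraries. With upper quartile scaling, which shifted the median of all genes by 0.11 on the log2 scale, Fkbp5 missed the threshold (edgeR adjusted p = 0.0656) and the 3 others passed (13.5% of genes were called lower). Tsc22d3 was at 22.4 and 20.9 CPM, without overlap with contralateral tendon, and did not pass (log2 fold change -0.60, SE 0.22, edgeR adjusted p = 0.0773). Ddit4 was at 6.06 and 4.90 CPM, within reach of the lowest contralateral library (log2 fold change -0.53, SE 0.29, edgeR adjusted p = 0.21).

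Of the FOXO factors, Foxo1 was at 6.74 and 7.17 CPM, below all contralateral libraries (log2 fold change -0.58, SE 0.19, edgeR adjusted p = 0.0571). Foxo3 was at 11.4 and 12.1 CPM, inside or just above the contralateral range (log2 fold change 0.31, SE 0.22, edgeR adjusted p = 0.333). Mt1 was at 9.55 and 8.90 CPM, above the 3.62 to 7.65 CPM of contralateral tendon, and did not pass (log2 fold change 0.68, SE 0.28, edgeR adjusted p = 0.107). Mt2 was at 7.67 and 6.57 CPM, where contralateral replicate 1 alone reached 7.76 CPM (log2 fold change 0.51, SE 0.38, edgeR adjusted p = 0.348).

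These calls depended on which libraries were in the fit. Fitted with only the tenotomy and contralateral libraries, 7 of the 10 genes passed, 6 lower (24.1% of 16014 genes were) and 1 higher (22.1% were). Foxo1 (edgeR adjusted p = 0.00602), Tsc22d3 (0.00376) and Mt1 (0.0214) were added, with nearly unchanged fold changes. When uninjured replicate 1 or 2 was left out, the median log2 fold change of the 10 was -0.58 and -0.59, respectively. When contralateral replicate 1, 2 or 3 was left out, 0 of the 10 and 0 of all genes tested passed. With any single contralateral or tenotomy library left out, the log2 fold change of Pdk4 stayed between -2.64 and -2.53. The title numbers of the samples fall in 3 series, which no label calls a batch. With the series as a covariate 6 of the 10 were lower (18.2% of genes were). Within the first of them, which holds the contralateral libraries and tenotomy replicate 1, the difference in log2 CPM was -2.62 for Pdk4, -2.39 for Fbxo32, -1.98 for Trim63 and -0.64 for Fkbp5.

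The last comparison set the tenotomy site against uninjured tendon. None of the 10 genes passed with both uninjured libraries (0.0% of 16028 genes did). Of all genes 1741 had an unadjusted p-value under 0.05, and DESeq2 called 145 (0.905%), none of the 10 among them. Against uninjured replicate 2 alone, Trim63 (log2 fold change -1.42), Fbxo32 (-1.24) and Pdk4 (-1.04) were lower, with edgeR adjusted p-values of 3.12e-05, 0.000902 and 0.000156, where 13.7% of 17018 genes were called lower. The myofibre markers were lower there too, 22 of 22. Against uninjured replicate 1 alone, which shares its title-number series with tenotomy replicate 2, none of the 10 passed (0.083% of 16877 genes did) and their median log2 fold change was 0.003. Fbxo32, Trim63, Foxo1 and Pdk4 lay below both uninjured libraries at the tenotomy site, and Fkbp5, Mt1 and Mt2 lay above both. Of all genes tested, 20.4% lay below and 20.1% above in this way. Mt1 was 1.35-fold and 1.72-fold, and Mt2 1.665-fold and 1.68-fold, above the respective uninjured libraries.

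The wider pathways were followed through lists of other genes, each described by its count of calls at the tenotomy site against contralateral tendon. Of 90 genes tested, 45 were lower and 10 higher, with a median log2 fold change of -0.75, where 15.4% of all genes were called lower and 13.6% higher. When any single contralateral or tenotomy library was left out, 0 of the related genes were called in either direction, as was 0 of all genes with edgeR, although 4538 to 6148 of all genes had a p-value under 0.05 before adjustment. For the related genes the median stayed between -0.755 and -0.70. Among 15 other glucocorticoid-responsive genes, 7 fell and 2 rose. Klf15, a transcription factor of amino acid breakdown in muscle, fell (log2 fold change -1.75), as did Zbtb16 (-1.68) and Klf9 (-1.18), while Anxa1, an anti-inflammatory annexin, rose (1.60). Their SE was 0.23 to 0.40 and their edgeR adjusted p-values were 0.0167 to 0.0196. Of 7 genes of the receptor system, 4 fell and 1 rose. The mineralocorticoid receptor gene Nr3c2 fell (-1.04), as did the co-chaperone gene Fkbp4 (-0.91), Hsd11b1, whose enzyme regenerates active hormone (-0.90), and Hsp90ab1 (-0.78). The glucocorticoid receptor gene Nr3c1 did not pass (-0.30, SE 0.17, edgeR adjusted p = 0.217).

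Of 23 other atrophy genes, 9 fell and 1 rose at the tenotomy site. Bnip3, a mitophagy receptor, fell (log2 fold change -2.31), as did the F-box genes Fbxo31 (-1.73) and Fbxo21 (-1.06) and the autophagy adaptor Sqstm1 (-1.085). The lysosomal protease gene Ctsl rose (1.01). Of 6 tested genes that respond to denervation, 2 fell and 2 rose. Musk, the agrin co-receptor of the neuromuscular junction, fell (-2.31), and so did the acetylcholine receptor subunit Chrna1 (-1.53). Runx1 rose (2.57) from 3.95 CPM ± 1.10 (SD, n = 3) to 23.5 CPM ± 0.557 (SD, n = 2), and Ncam1 also rose (0.67). Both are also expressed outside muscle.

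Among 16 genes of FOXO and AKT signalling, 8 fell and 2 rose. The mitochondrial superoxide dismutase Sod2 fell (log2 fold change -2.19), as did Foxo4 (-1.48), catalase (Cat, -1.34) and Cited2 (-1.19). Of 7 mTOR genes 5 fell, among them Ddit4l, the paralogue of Ddit4 (-1.75), Tsc1 (-1.11), Mtor (-0.91) and Tsc2 (-0.72). Of 11 fuel genes related to Pdk4, 9 fell and 1 rose, with a median log2 fold change of -2.38. Cpt1b, the muscle carnitine palmitoyltransferase, fell (-3.56), as did Ppara (-3.45), Ppargc1a (-2.56) and Pdk2 (-2.40). Of 5 tested genes of metal handling 1 rose and 1 fell. The zinc importer gene Slc39a14 rose (1.43) from 4.37 CPM ± 0.503 (SD, n = 3) to 11.7 CPM ± 0.412 (SD, n = 2), and the zinc exporter gene Slc30a1 fell (-0.54). The median of the myofibre markers on this scale was -3.41. The part of muscle content in these counts was not tested.

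**Figure D4:**
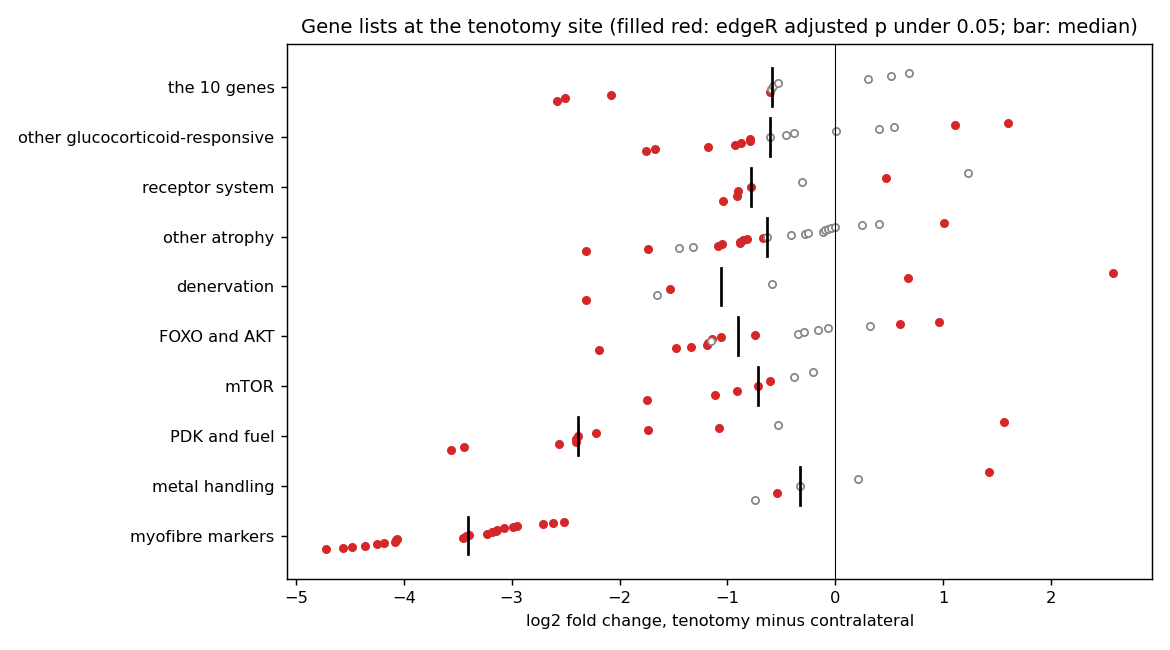
Log2 fold changes between tenotomy and contralateral tendon (horizontal axis) of the 10 genes, of 8 lists of related genes and of the 22 myofibre markers, with 1 point per gene, filled red where the edgeR adjusted p-value was under 0.05, and a bar at each median. The medians run from -0.33 for metal handling to -3.41 for the myofibre markers.

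Across the 7 libraries, genes of like pattern were sought among 823 genes by the Pearson correlation of log2 CPM, given as a description over libraries that differ in muscle content and depth. Fbxo32 was most like Atp2a2, the calcium pump of slow fibres (r = 0.999), Myl9 (0.998) and Ablim1 (0.995). Pdk4 was most like Atp2a2 (0.994), Uaca (0.994) and Dst (0.994), and Trim63 like March6 (0.998), Lmod2 (0.997) and Akap6 (0.997). Foxo1 was most like Galnt15 (0.961), Pik3r1 (0.952) and Fmo2 (0.947). For Fkbp5 the nearest gene was the complement gene C7 (0.961), followed by Samd4 (0.913) and Ppp1r3c (0.897). For Tsc22d3 it was Cdc73 (0.964), then Fmo2 (0.955) and Slmap (0.953). Ddit4 had no close partner (Clu 0.807, Fmo2 0.769, Galnt15 0.767). Mt1, Mt2 and Foxo3 shared the partners Ccn2 (0.987, 0.940 and 0.936) and Comp (0.928, 0.799 and 0.967). The last place went to Spred1 for Mt1 (0.858) and Mt2 (0.643), and to the tendon gene Thbs4 for Foxo3 (0.865).

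Levels of different genes were compared per transcript length, in TPM. In contralateral tendon the order was Mt1 (2.92 TPM ± 1.29), Tsc22d3 (2.78 ± 0.737), Pdk4 (2.47 ± 0.418), Mt2 (2.44 ± 1.46), Trim63 (1.52 ± 0.287), Fkbp5 (1.08 ± 0.185), Ddit4 (0.804 ± 0.339), Fbxo32 (0.748 ± 0.219), Foxo3 (0.371 ± 0.134) and Foxo1 (0.176 ± 0.0502; SD, n = 3 each). Neighbours in this order overlapped between libraries, apart from Fbxo32 and Foxo3 and from Foxo3 and Foxo1. At the tenotomy site Mt1 (4.16 ± 0.0383; SD, n = 2) and Mt2 (3.05 ± 0.154) led without overlap, Pdk4 stood seventh (0.408 ± 0.0743), overlapping Foxo3 and Trim63, and Fbxo32 (0.126 ± 0.000956) ninth, just above Foxo1 (0.113 ± 0.014). Uninjured libraries had Mt1 (2.65 to 3.49 TPM) and Mt2 (1.98 to 2.08) in the lead, then Tsc22d3 (1.73 to 2.22), Pdk4 (0.484 to 1.03), Trim63 (0.482 to 0.968), Fkbp5 (0.629 to 0.752), Ddit4 (0.594 to 0.682), Foxo3 (0.264 to 0.430), Fbxo32 (0.166 to 0.309) and Foxo1 (0.143 to 0.161). There, Mt1 lay above Mt2, and Foxo1 below Fbxo32, without overlap, Ddit4 lay above Foxo3, Tsc22d3 lay above Pdk4, and other neighbours overlapped. The ratio of Trim63 to Fbxo32 in TPM was 1.76 to 2.31 in contralateral libraries and 2.90 to 3.13 in the other 4. The ratio of Foxo3 to Foxo1 was 3.424 and 4.003 at the tenotomy site against 1.92 to 2.35 in contralateral tendon, and 3.02 and 1.64 in uninjured replicates 1 and 2. TPM were scaled over all deposited transcripts, the 5 most abundant features included.

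Transcript splits were the estimates of the quantifier. Fbxo32, Ddit4, Foxo1, Mt1 and Mt2 had 1 transcript each in the deposited tables. Tsc22d3-201 (1974 bases, protein-coding) took 72.4% to 79.9% of the gene's TPM over the 7 libraries, Trim63-202 59.6% to 82.7%, and Foxo3-203 49.6% to 66.0%. In Fkbp5 no transcript took more than 38.5%. The 31-base words of the genes' transcripts were looked up in the deposited transcripts of all other genes, since shared words make counts uncertain. Foxo1 shared 8.0%, Fbxo32 4.15% and the other 8 genes at most 1.59%, and no word was shared between Mt1 and Mt2.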

How the data were processed

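Gene expression was measured by RNA sequencing in 7 libraries. Per the labels' protocols, RNA was extracted with Trizol and cleaned on columns, and TruSeq chemistry was used for library preparation. Per the submitters' processing notes, kallisto and FastQC 0.11.4 were used. Those notes name the human build GRCh38, whereas the transcript IDs are of mouse, and the annotation release is not given in the sources used here. Per the file headers, the deposited tables hold estimated counts per transcript, which are not normalized, and TPM, which the authors' tool scaled by effective length, along with length and effective length in bases.

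Transcript IDs were matched without version to GENCODE M21 (GRCm38; 101510 of 103639), and estimated counts were summed per gene and rounded. Genes were filtered by group with edgeR 4.0.16 (filterByExpr, at least 10 counts), scaling was TMM, and log2 CPM used a prior count of 2. The test was edgeR's quasi-likelihood test with 3 group means in 1 fit of all libraries (R 4.3.3), with Benjamini-Hochberg adjustment over all genes tested, a threshold of 0.05, and an SE equal to the log2 fold change divided by the square root of F. DESeq2 1.42.0 and limma-voom (limma 3.58.1) were alternatives, as were RLE and upper quartile scaling, no filter, length-scaled TPM, removal of myofibre and mitochondrial genes, the series of title numbers as a covariate, and each library left out. Replicates were numbered in accession order, which pairs no libraries. On simulated counts for 15513 genes in which 200 genes of tenotomy libraries had a log2 change of 2, edgeR called 162 of them and 13 others in the comparison with contralateral tendon.

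The 10 genes and all gene lists were chosen with earlier results of these data known, as were the motifs. Related genes were named by a rule that took, per list, at most the 4 largest changes past the threshold between tenotomy and contralateral tendon, and Ctsl, Nr3c1 and Cdkn1c were named outside it after their values were seen. Genes of like pattern were the 3 highest correlations among 823 genes whose log2 CPM averaged 3 or more and ranged over 1 or more, leaving out placeholder symbols.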

Additional observations from a re-analysis of the deposited data

How the results depend on the processing

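Between tenotomy and contralateral tendon, 4643 genes and 4 of the 10 passed. With only the groups compared in the fit, 7385 genes and 7 of the 10 passed. Leaving out 1 library gave between 0 and 7336 genes, and between 0 and 7 of the 10. The other alternatives left 3 to 6 of the 10 past the threshold.

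Between contralateral and uninjured tendon, where 0 genes passed, DESeq2 called 223 genes and 4 of the 10, no filter on low counts 337 and 2, and the series covariate, in which uninjured replicate 1 alone stands for its group, 2466 and 3. Leaving out 1 library gave between 0 and 5393 genes and between 0 and 5 of the 10. Small changes that passed nowhere turned direction. Foxo3, at a log2 fold change of -0.089, reached 0.15 with length-scaled TPM, and leaving out 1 library gave -0.30 to 0.15 (0.04 without contralateral replicate 3). Mt1, at -0.084, ranged from -0.33 to 0.16 (0.089 without uninjured replicate 1). Mt2, at 0.23, was at -0.014 with the series covariate and ranged from -0.21 without contralateral replicate 1 to 0.56.

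Between tenotomy and uninjured tendon, DESeq2 called 145 genes, no filter 15 and the series covariate 4, and leaving out 1 library gave between 0 and 4275 genes and between 0 and 3 of the 10. Fkbp5, at 0.16, was at -0.064 with length-scaled TPM. Tsc22d3, at -0.083, was at 0.12 with the series covariate and between -0.29 and 0.17 with 1 library left out. The cause of these shifts was not tested. Levels relative to myofibre markers without Myh1, Myh2 and Myh4 moved by less than the SD of the contralateral libraries for all 10 genes, as did differences in log2 CPM with a prior count of 0.5. The slow-fibre and fast-fibre marker sets were chosen after seeing the data. No paired analysis was possible because the labels give no replicate numbers. The 10 genes held 81 to 2028 counts per library, and groups of 2 or 3 libraries limit every test.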
